A study of Homo sapiens with 22 samples.

Results

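The regions described here were the 7126 peaks of PDS5A that lay outside the peaks of RAD21, out of 28887 PDS5A peaks in all (24.7%, 95% Wilson interval 24.2% to 25.2%). They were selected on measured values. A PDS5A peak of clone NIPBL-D7 in DMSO was taken when it shared not a single base with a RAD21 peak of that clone in DMSO or with a RAD21 peak of clone NIPBL-A2 in DMSO. Of the remaining 21761 PDS5A peaks, 19530 overlapped a RAD21 peak of both clones, 1477 of clone D7 only and 754 of clone A2 only. The absence of RAD21 peaks from the selected regions is therefore the rule itself and not a result.

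The study mapped cohesin and its partners by chromatin immunoprecipitation sequencing (ChIP-seq) in hTERT RPE-1, a telomerase-immortalised line from human retinal pigment epithelium. Of its 22 samples, 12 were precipitates with peaks called and 10 were inputs. In clone NIPBL-D7 the NIPBL gene carried mGreenLantern-P2A-FKBP12(F36V) and in clone NIPBL-A2 it carried mCherry-P2A-FKBP12(F36V), a degron that lets dTAGV-1 direct NIPBL to degradation. RAD21 was mapped in both clones after 24 h in DMSO, 4 h in dTAGV-1 and 24 h in dTAGV-1, and PDS5A in clone D7 after 24 h in DMSO. STAG1 and STAG2 were mapped in clone D7 with no treatment named, CTCF and WAPL in wild-type cells, and an HA epitope in clone A2. Cells were cycling, both clones carried the degron also in DMSO, and each clone is a single clone. Every group was 1 library, so no comparison has a replicate check, no p-value is given, and the intervals cover counting error only.

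Cohesin is a ring of SMC1A, SMC3 and RAD21 with STAG1 or STAG2 as a further subunit. PDS5A and its paralogue PDS5B are HEAT-repeat proteins that sit on RAD21, act with WAPL in releasing cohesin from DNA, and take part in holding cohesin where CTCF is bound. PDS5A is known as a cohesin partner, so its peaks are usually read beside those of RAD21.

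The sequences that the strongest of these regions shared are shown first. The promoters below belong to the 6 genes whose start had the highest PDS5A fold enrichment among regions with no CTCF peak. Each line gives the 160 bases before the start of the gene, 5′ to 3′ on the strand of the gene, from RefSeq (GRCh38.p14). Capitals mark TCTCGCGAGA, the 10-letter element described below, or the 8-letter word TCGCGAGA and its reverse complement TCTCGCGA.
CDK12 (chr17:39461326-39461485, plus strand): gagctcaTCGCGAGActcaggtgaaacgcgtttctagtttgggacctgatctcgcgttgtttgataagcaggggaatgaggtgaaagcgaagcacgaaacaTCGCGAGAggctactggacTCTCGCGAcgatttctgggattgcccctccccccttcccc
ECHS1 (chr10:133373355-133373514, minus strand): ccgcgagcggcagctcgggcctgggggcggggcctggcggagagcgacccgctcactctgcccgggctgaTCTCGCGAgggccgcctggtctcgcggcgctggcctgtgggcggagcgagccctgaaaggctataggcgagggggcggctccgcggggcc
DRC4 (chr16:90022520-90022679, plus strand): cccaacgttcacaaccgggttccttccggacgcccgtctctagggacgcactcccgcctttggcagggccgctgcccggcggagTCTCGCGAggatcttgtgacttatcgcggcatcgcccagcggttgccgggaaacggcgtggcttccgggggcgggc
NCAPG (chr4:17810819-17810978, plus strand): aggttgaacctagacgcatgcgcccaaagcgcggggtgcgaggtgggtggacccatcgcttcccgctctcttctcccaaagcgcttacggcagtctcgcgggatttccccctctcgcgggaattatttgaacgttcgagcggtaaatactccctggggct
ASXL1 (chr20:32358171-32358330, plus strand): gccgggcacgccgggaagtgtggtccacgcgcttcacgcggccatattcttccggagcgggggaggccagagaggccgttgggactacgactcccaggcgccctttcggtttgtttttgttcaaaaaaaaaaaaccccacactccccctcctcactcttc
RPS6 (chr9:19380237-19380396, minus strand): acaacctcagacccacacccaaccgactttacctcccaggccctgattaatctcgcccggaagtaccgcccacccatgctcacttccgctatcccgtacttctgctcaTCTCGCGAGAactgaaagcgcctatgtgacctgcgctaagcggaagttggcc
The promoter of CDK12, a kinase of the elongating form of RNA polymerase II, held 3 of the 8-letter words, beginning at bases -153, -59 and -40 counted from the start. Its PDS5A summit lay at base -52. ECHS1, a mitochondrial enoyl-CoA hydratase, and DRC4, a subunit of the dynein regulatory complex, held 1 word each, from -90 to -83 and from -76 to -69, with summits at -78 and -64. RPS6, a protein of the small ribosomal subunit, held the whole 10-letter element from -52 to -43, with its summit at -33. NCAPG, a condensin subunit, held neither, although 2 copies of the 7-letter word CGCGAGA (reverse complement TCTCGCG) lay in its 160 bases. ASXL1, a chromatin regulator, held none of these words, and its summit lay further upstream at -268.

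The stretches below show the word in the 10 strongest regions that lay at a gene start and had the 8-letter word in the promoter window, with or without a CTCF peak. Each is 40 bases long, in the direction of the gene, and capitals again mark the element or the word nearest to the PDS5A summit.
CDK12 (chr17:39461411-39461450, plus strand): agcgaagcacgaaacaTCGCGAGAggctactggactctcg
IREB2 (chr15:78438183-78438222, plus strand): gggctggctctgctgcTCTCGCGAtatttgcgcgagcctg
TUBGCP5 (chr15:23039622-23039661, minus strand): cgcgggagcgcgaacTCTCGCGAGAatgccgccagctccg
RPS19 (chr19:41860191-41860230, plus strand): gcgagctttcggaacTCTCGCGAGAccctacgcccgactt
ARF3 (chr12:48957550-48957589, minus strand): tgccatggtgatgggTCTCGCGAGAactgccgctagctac
BTBD10 (chr11:13463299-13463338, minus strand): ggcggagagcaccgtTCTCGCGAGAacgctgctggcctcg
ECHS1 (chr10:133373421-133373460, minus strand): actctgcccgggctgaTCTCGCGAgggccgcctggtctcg
PSMD5 (chr9:120842954-120842993, minus strand): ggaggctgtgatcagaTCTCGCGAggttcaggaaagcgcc
NOP14 (chr4:2963401-2963440, minus strand): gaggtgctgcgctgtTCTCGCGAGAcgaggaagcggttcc
DRC4 (chr16:90022588-90022627, plus strand): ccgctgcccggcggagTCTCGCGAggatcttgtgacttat
The summit of PDS5A was 4 to 14 bp from the centre of the capitals in 9 of these 10 genes and 52 bp from it in IREB2. The full element of 10 letters was present in TUBGCP5, RPS19, ARF3, BTBD10 and NOP14, and the 8-letter form in CDK12, IREB2, ECHS1, PSMD5 and DRC4.

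Most PDS5A peaks outside RAD21 were weak. Fold enrichment, the ratio of the pileup at the summit to the local background as the authors deposited it, had a median of 3.61 (quartiles 3.14 and 4.25), against 10.2 (5.47 and 23.7) for PDS5A peaks on RAD21. A fold under 5 was found for 6254 of the regions (87.8%), a fold from 5 up to 10 for 731 (10.3%), and a fold of at least 10 for 141 (1.98%). Of the PDS5A peaks on RAD21, 50.6% had a fold of at least 10. The regions were also narrower, with a median of 471 bp against 757 bp. The pileup at the summit, recovered from the deposited fold and −log10 p, had a median of 19 fragments over a local background of 4.47, against 49 over 5.25 for peaks on RAD21. The background pileup of whole libraries was 2.76 for PDS5A, 3.00 for RAD21 in clone D7 and 1.87 for RAD21 in clone A2, so a weak RAD21 signal below the calling threshold would not be seen in these lists.

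A small number of the regions were as strong as high PDS5A peaks on RAD21. The strongest, at CDK12, had a fold of 201.6 and was rank 21 of all PDS5A peaks, and 6 of the 1000 highest PDS5A peaks lay outside RAD21. Among the 10 highest were CDK12 (201.6), IREB2 (108.1), TUBGCP5 (93.7), RPS19 (86.0), ARF3 (79.99), TMEM18 (77.8), BTBD10 (75.1), ECHS1 (64.5) and PSMD5 (63.9). IREB2 encodes an iron-responsive RNA-binding protein, RPS19 a protein of the small ribosomal subunit, TUBGCP5 a component of the γ-tubulin ring complex, ARF3 a small GTPase, and PSMD5 a chaperone of proteasome assembly. The nearest DMSO RAD21 peak was 2121 bp away at BTBD10 and 58357 bp away at CDK12, the ends of the range among these 9. All 9 summits lay 32 to 89 bp upstream of a gene start. Not all were free of other cohesin peaks. RPS19, TMEM18 and ECHS1 met a RAD21 peak of clone D7 after 4 h of dTAGV-1, and TUBGCP5 and TMEM18 met STAG1.

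The distance to cohesin varied widely among the regions. The gap to the nearest RAD21 peak of either DMSO list had a median of 13068 bp (quartiles 4584 and 32563 bp). Only 583 regions (8.18%) lay within 1 kb of one, 4094 (57.5%) lay more than 10 kb away and 559 (7.84%) more than 100 kb away. At the edge of the rule the regions were weak. The 3 regions nearest to a RAD21 peak lay in MAPK8 (fold 3.78, 1 bp apart), in TTLL4 (2.79, 1 bp) and near INO80 (4.69, 3 bp). The 3 PDS5A peaks that just overlapped one lay in CLIC6 (4.25, 3 bp shared), NR2F2 (4.02, 4 bp) and SH2B3 (3.83, 5 bp).

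The other lists were then read at these regions. Neither the rule nor the fold of PDS5A used them, but they are not independent of the rule. STAG1 and STAG2 are cohesin subunits like RAD21, and most PDS5A peaks on RAD21 also met CTCF. Low shares at regions chosen to lack RAD21, and the gaps to PDS5A peaks on RAD21, are thus partly built in. CTCF peaks overlapped 1509 of the 7126 regions (21.2%, interval 20.2% to 22.1%), against 92.5% of PDS5A peaks on RAD21, a difference of -71.3 percentage points (95% Newcombe interval -72.3 to -70.3). The CTCF peaks that were met were weak ones. Their median fold of 7.63 stood at the 32.9th percentile of the CTCF list, whereas those under PDS5A peaks on RAD21 had a median of 53.7, at the 78.8th percentile. STAG1 overlapped 253 regions (3.55%, against 85.9%), STAG2 12 (0.168%, against 53.6%) and WAPL 6 (0.0842%, against 11.2%). The HA list, of 230 peaks in all, met 2 regions. A total of 5160 regions (72.4%) met no peak of any other list, which held for 1.35% of PDS5A peaks on RAD21.

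**Figure D1:**
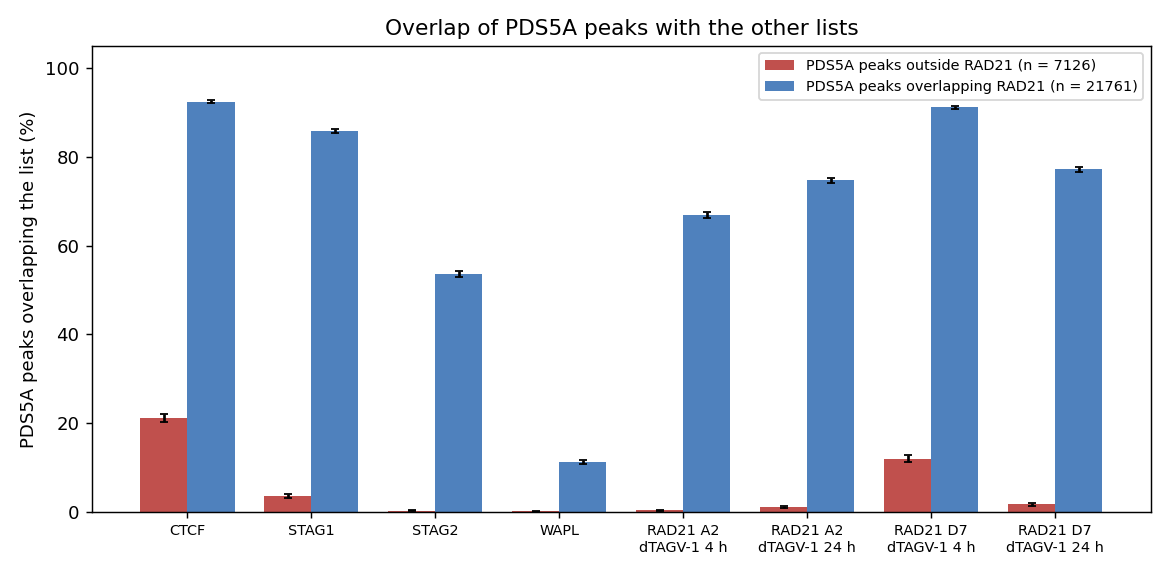
Share of PDS5A peaks (vertical axis, percent) that overlapped a peak of each list on the horizontal axis, in red for the 7126 outside RAD21 and in blue for the 21761 overlapping RAD21; bars carry 95% Wilson intervals for counting error. The red bars reach 21.2% for CTCF and 11.96% for RAD21 of clone D7 after 4 h of dTAGV-1 and stay under 4% elsewhere, while 7 of the 8 blue bars lie between 53.6% and 92.5%.

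Counted over all regions, RAD21 of the dTAGV-1 libraries was likewise rare, with 1 exception. The rule did not use these libraries, but they are RAD21 of the same clones, so low shares are again partly built in. In clone A2 the RAD21 list met 21 regions (0.295%) after 4 h and 75 (1.05%) after 24 h. In clone D7 it met 852 (11.96%, interval 11.2% to 12.7%) after 4 h and 119 (1.67%) after 24 h. The background pileup was 4.05 in the clone D7 library of 4 h and 1.87 to 3.16 in the other RAD21 libraries, and its part in that overlap was not tested. The RAD21 peaks in question were low in their list, with a median fold of 3.96 at the 18.0th percentile. In all, 918 regions (12.9%) met at least 1 of the 4 dTAGV-1 lists and 6 met all 4. For PDS5A peaks on RAD21 these shares were 93.3% and 62.7%. One region that met CTCF, STAG1, STAG2 and a dTAGV-1 RAD21 list lay in KCNIP1 (fold 11.4) and another near WDR88 (3.71), and no other was found.

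By position the regions were not unlike the other PDS5A peaks when all were counted. The summit lay within 1 kb of the start of a protein-coding gene in 1806 regions (25.3%) and in 22.6% of PDS5A peaks on RAD21, a difference of 2.75 points (interval 1.61 to 3.91). A further 38.3% lay elsewhere in a gene and 36.4% between genes. The largest class, 4394 regions (61.7%, median fold 3.48), was away from starts and free of CTCF, and it met STAG1 in 0.432% and RAD21 of clone D7 at 4 h in 2.69% of cases. RAD21 at 4 h was met by 35.2% of the 583 regions at a start with CTCF, 20.4% of the 1223 at a start without CTCF, and 30.2% of the 926 away from starts with CTCF.

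The strong regions differed in position from the weak ones, and in the direction opposite to PDS5A on RAD21. All PDS5A peaks were ranked by fold and divided into 10 equal bins. Among the regions outside RAD21 the share at a gene start was 23.3% in the lowest bin (464 of 1989), 52.4% in the sixth (87 of 166) and 93.8% in the highest (15 of 16, interval 71.7% to 98.9%). Among PDS5A peaks on RAD21 it was 54.6% in the lowest bin and 11.6% in the highest. CTCF overlap of the regions was 13.9% in the lowest bin, 63.9% in the sixth, 9.38% in the ninth (3 of 32) and 56.3% in the highest (9 of 16). In every bin it was below the share among PDS5A peaks on RAD21, which lay between 62.3% and 99.8%. RAD21 of clone D7 after 4 h of dTAGV-1 was met by 10.1% of the regions in the lowest bin and 36.7% in the sixth. It was met by 19.4% in the eighth and 37.5% in the highest (6 of 16). STAG1 was met by 3.12% in the lowest bin, 9.64% in the sixth, 8.33% in the eighth and 18.75% in the highest (3 of 16).

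**Figure D2:**
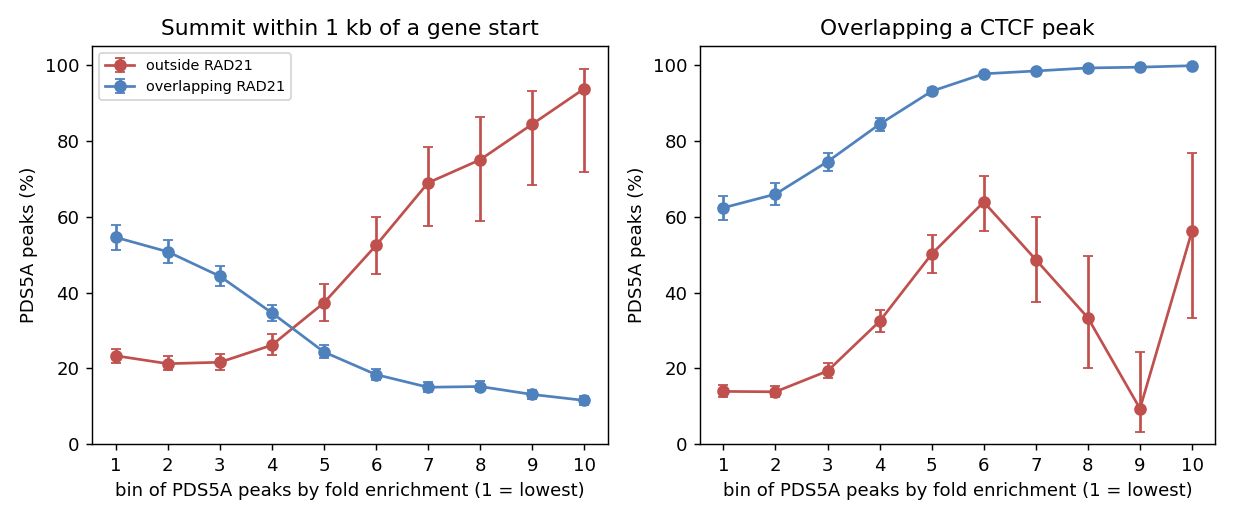
Share of PDS5A peaks (vertical axes, percent) with the summit within 1 kb of a gene start (left) and with a CTCF peak (right), by bin of the PDS5A list (10 bins) in order of fold enrichment (horizontal axes), outside RAD21 in red and on RAD21 in blue; bars are 95% Wilson intervals. On the left the lines cross, from 23.3% to 93.8% in red and from 54.6% to 11.6% in blue.

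Where a summit lay at a start, its side of the start also went with its strength. For the 95 regions with a fold of at least 10 and a stranded start within 1 kb, the summit lay at a median of -57 bp (quartiles -91.5 and -24.5), which is upstream. For the 1391 with a lower fold the median was 41 bp downstream (quartiles -84 and 176.5). PDS5A peaks on RAD21 with a fold of at least 10 were spread more widely around a median of -90 bp, with quartiles of -253 and 31 (n = 1124).

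**Figure D3:**
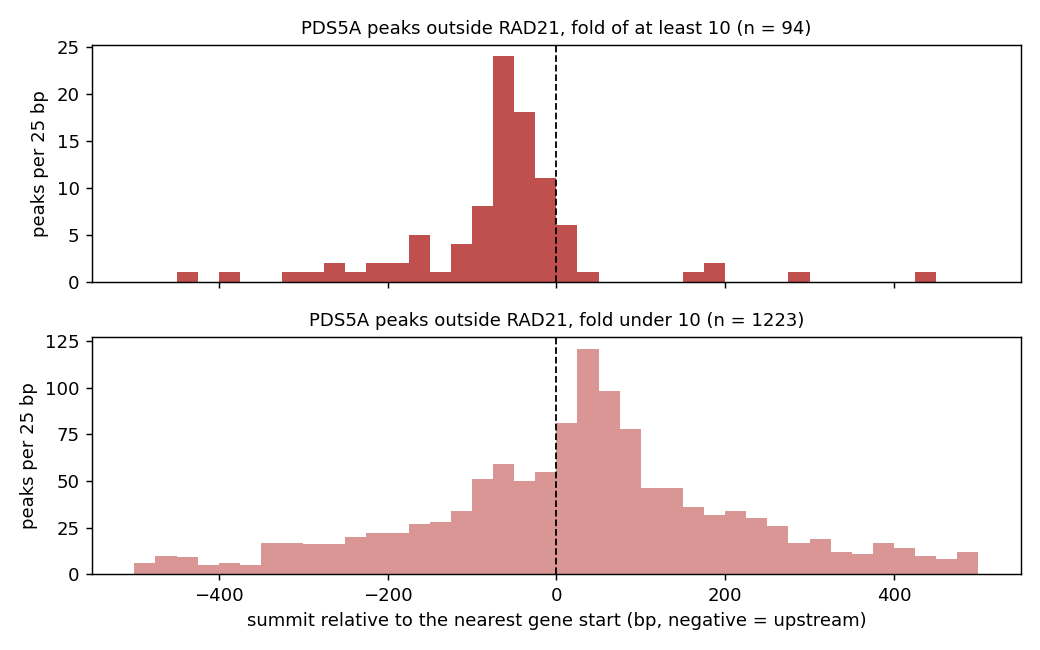
Number of regions per 25 bp (vertical axes) by distance of the PDS5A summit from the nearest gene start (horizontal axis, bp, negative upstream), for fold of at least 10 (above, 94 regions within 500 bp) and under 10 (below, 1223 regions). The strong regions gather just upstream of the start and the weak ones peak just downstream of it.

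The promoter words shown above were found by counting, after the values had been seen. All 8-letter words were counted on both strands in the 300-base promoter windows of RefSeq, which run from 250 bases before to 50 after a start, and ranked by how much more often they occurred in the 158 windows overlapped by a region of fold at least 10. The windows number 34943, of which 5.94% were overlapped by a region and 23.1% by any PDS5A peak. TCGCGAGA came first, in 86 of the 158 windows (54.4%) against 1.14% of all windows of unique sequence. Of 10-letter words TCTCGCGAGA came first, in 24.7% against 0.414%. It is its own reverse complement, it contains the 8-letter word, and it is known as a binding site of the protein BANP at promoters of broadly expressed genes. BANP was not mapped here. The word was chosen on these windows, so its share in them is a description. Neighbouring genes can share a region and its word. The 158 windows thus exceed the 141 regions of that fold and are not independent.

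The share of windows with the 8-letter word was higher where the fold of the PDS5A peak was higher. The word was chosen for its share in windows with a region of fold at least 10. The top of this order, and its excess over PDS5A peaks on RAD21, are thus partly built in. The share was 54.4% for regions of fold at least 10, 13.8% (50 of 363) for a fold from 5 up to 10 and 0.707% (11 of 1556) below 5. For PDS5A peaks on RAD21 it was 7.43%, 2.38% and 0.456% in the same classes, and it was 0.223% in windows with no PDS5A peak. The median number of CG dinucleotides in a window was 28 in each of the 3 classes of regions, and 8 in windows without PDS5A. Among strong regions with no CTCF peak, a part of the windows used for the choice, the word stood in 60 of 107 windows (56.1%).

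Seen from the sequence, most promoters with the element had a peak in the PDS5A precipitate. Which protein the antibody bound there, and at the snRNA genes described below, was not tested. Of the 144 windows with TCTCGCGAGA, 133 had a PDS5A peak (92.4%, interval 86.8% to 95.7%), which was one of the regions outside RAD21 in 55 windows and a peak on RAD21 in 78. Windows with the 8-letter word alone had a PDS5A peak in 80.7% of 254 cases and windows with neither in 22.3%. RAD21 of clone D7 in DMSO was present in 33.3% of element windows, RAD21 of clone A2 in 34.7%, CTCF in 34.0%, STAG1 in 30.6%, STAG2 in 2.78% and WAPL in 3.47%. In windows with neither word these shares were 20.6%, 17.5%, 19.3%, 17.9%, 3.03% and 0.362%. In windows rich in CG, those with at least 28 CG dinucleotides, the order for RAD21 was not decided. There RAD21 of clone D7 was present in 33.3% of 75 element windows (interval 23.7% to 44.6%) and in 40.3% of 8917 windows with neither word. RAD21 of clone A2 lay in the other direction, in 30 of the 75 (interval 29.7% to 51.3%) and in 34.7% of windows with neither. Counting error did not separate the shares in either clone. PDS5A was present in 98.7% of these element windows and 47.6% of those with neither word. The word was chosen on windows with strong regions, which lack DMSO RAD21 by the rule. A high share of PDS5A beside a low share of RAD21 in element windows is thus partly built in. A PDS5A peak can be wider than a window, so a peak on RAD21 may meet RAD21 outside the window. Windows of neighbouring genes can share a site, and the intervals here count each window on its own.

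**Figure D4:**
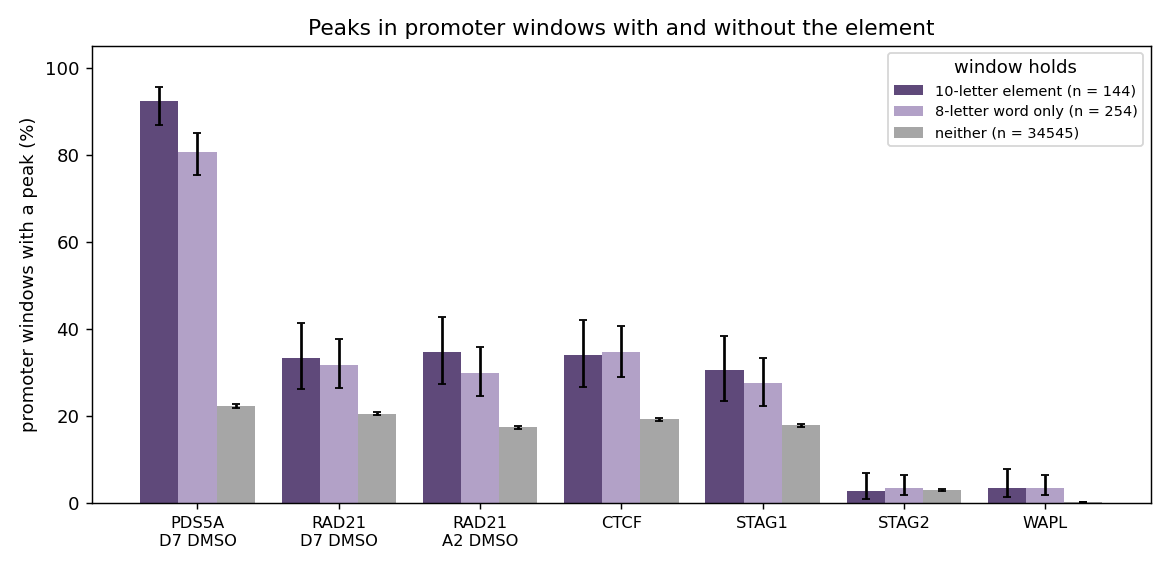
Share of promoter windows of 300 bases with a peak of each list (vertical axis, percent), for windows with the 10-letter element (144), with the 8-letter word only (254) and with neither (34545); bars are 95% Wilson intervals. PDS5A stands at 92.4%, 80.7% and 22.3%, and RAD21, CTCF and STAG1 lie between 27.6% and 34.7% in windows with either word. The words were chosen on windows with strong regions outside RAD21, so the gap between PDS5A and RAD21 is partly built in.

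The fold of PDS5A at the element is given as a description. The word was chosen on windows with a region of fold at least 10, as were 39 of the 55 element windows with a region. A high fold of the regions there is thus partly built in. The choice did not use the fold of PDS5A peaks on RAD21. In element windows the regions outside RAD21 had a median fold of 17.2 (lowest 3.64, highest 93.7) and PDS5A peaks on RAD21 one of 22.5. In windows with neither word the medians were 3.798 and 5.77. For RAD21 of clone D7 the order was the reverse, with a median of 4.13 in element windows and 5.85 in the windows with neither word. At the 55 PDS5A peaks on RAD21 whose summit lay within 1 kb of an element, PDS5A stood at a median percentile of 79.8 of its list. A RAD21 peak lay under 42 of the 55 in clone D7, at a median percentile of 15.4, and under 39 in clone A2, at 14.5. STAG1 lay under 35, at 14.8, and CTCF under 34, at 35.8.

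The summit of PDS5A lay close to the element. After windows of neighbouring genes that share a site were merged, 110 element sites were left, and 101 of them (91.8%) had a PDS5A summit within 1 kb. The median distance from summit to element centre was 8 bp, and 79.2% of the summits were within 20 bp. For the regions outside RAD21 alone the median was 8 bp over 44 sites, with 33 summits within 20 bp, and for PDS5A peaks on RAD21 it was 8 bp over 57 sites, with 82.5%. RAD21 summits of clone D7, found within 1 kb of 44 sites, lay at a median of 217.5 bp, and 4.55% were within 20 bp. PDS5A summits around other promoter motifs were not close in this way. Around CCGGAAG, read here as an ETS-type site, the median was 159.5 bp with 6.60% within 20 bp, and around CGCATGCG, an NRF1-type site, 198 bp with 4.42%.

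**Figure D5:**
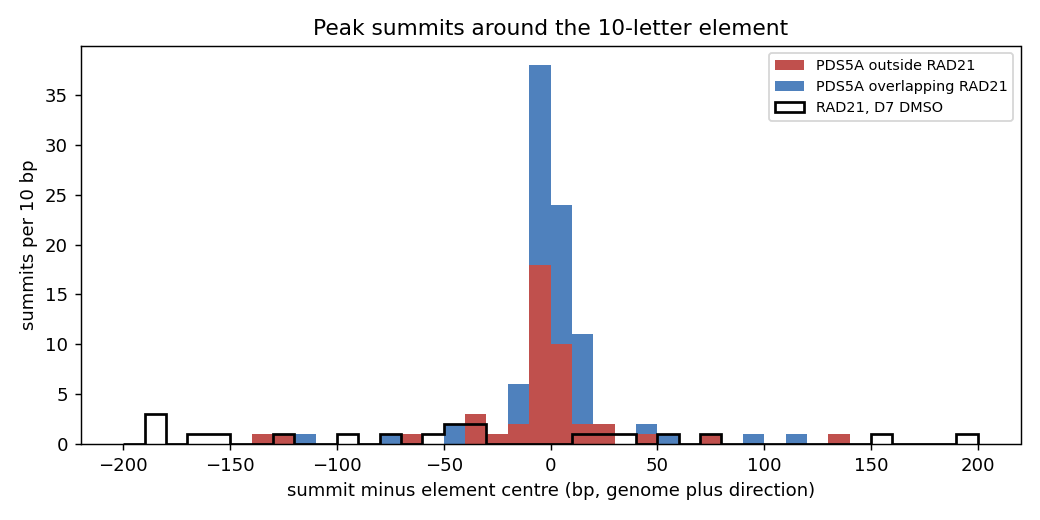
Number of summits per 10 bp (vertical axis) by distance from the centre of the 10-letter element (horizontal axis, bp), for PDS5A outside RAD21 (red) and on RAD21 (blue, stacked on red) and for RAD21 of clone D7 in DMSO (black outline). PDS5A summits of both kinds gather within 20 bp of the element, and the RAD21 summits show no such gathering.

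Other motifs were searched on both strands of the 300-base windows. GGGCGG, the core of SP and KLF sites, stood in 70.3% of windows with a region of fold at least 10 and in 44.9% of all windows, and it also stood in 74.7% of windows with PDS5A on RAD21. CCGGAAG was found in 16.5% against 10.2% of all windows, AAGATGGCG, a YY1-type site, in 6.33% against 1.75%, and TGACGTCA, the cyclic-AMP response element, in 6.96% against 1.84%. The TATA word TATAAA was found in 2.53% against 11.6%. TGANTCA, the AP-1 site, was found in 1 of the 158 windows (0.633%) against 7.72%. In windows with PDS5A on RAD21, CCGGAAG stood in 16.6%, AAGATGGCG in 3.33% and TGACGTCA in 2.49%. TATAAA stood in 4.45% of them and TGANTCA in 3.95%, also below the shares of all windows. The motifs can overlap one another, a match is no proof of a bound factor, and no difference was tested.

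The genes with the element were then counted. Of 110 protein-coding genes with TCTCGCGAGA in a promoter window, 46 had a region outside RAD21 at the window, 59 had a PDS5A peak on RAD21 and 5 had no PDS5A peak. Those 5 were CCNG1, FAM9A, MAP10, POU4F1 and SYCP1. Among the 46 were RPS19 (86.0) and RPS6 (40.2), HNRNPH3 (46.6), which encodes an RNA-binding protein, CDC5L (30.4), a splicing factor, SUPT5H (25.0), a transcription elongation factor, and CCNC (21.7), the cyclin of the Mediator kinase module. They were named after their values had been seen.

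WAPL peaks came from wild-type cells and met 6 regions. Among them were the strong regions at CDK12 (WAPL fold 14.2, summits 58 bp apart), IREB2 (4.50, 0 bp), TMEM18 (5.46, 15 bp) and upstream of DYNC1H1 (13.3, 7 bp). A weak one lay 103762 bp upstream of FMN2, with a PDS5A fold of 2.84 and a WAPL fold of 4.03. The CDK12 and DYNC1H1 peaks stood at the 95.2nd and 93.3rd percentile of the 2667 WAPL peaks. No RAD21 peak was present at any of these in the DMSO lists, by the rule. The WAPL-positive regions were singled out after their values had been seen.

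A few strong regions lay away from gene starts. Of those without CTCF and more than 10 kb from any start, the highest was 16391 bp upstream of DYNC1H1, the heavy chain of cytoplasmic dynein, at chr14:101947695-101948742 (fold 57.0). The next were 35974 bp upstream of GLDC, the glycine decarboxylase, at chr9:6680923-6682142 (34.1), and 210021 bp from TFCP2L1, at chr2:121074108-121075574 (32.5). The second of them also met RAD21 of clone D7 at 4 h.

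Genes for small nuclear RNAs, the RNA parts of the spliceosome, accounted for a further group of strong regions. Summits of 16 regions lay within 500 bp of an snRNA gene, and 10 of these had a fold of at least 10, out of 141 such regions in all. They included RNVU1-15 (20.7), RNU2-2 (20.3), RNVU1-6 (19.6), RNU1-2 (18.1), RNU5F-1 (13.7) and RNU11 (10.3). Of the 16, only the region at RNU11 met CTCF, and none met STAG1 or RAD21 of clone D7 at 4 h. The 16 were 0.225% of the regions, and PDS5A peaks on RAD21 lay at snRNA genes in 11 cases (0.0505%). The median fold was 12.3 at the 16 regions and 11.9 at those 11 peaks, so a high fold there was not particular to the regions. Many U1 genes are near-identical copies, and how reads matching several places were treated is not given in the sources used here, so the copy that gave a peak is uncertain. For tRNA genes the numbers were 5 regions (0.0702%) and 29 PDS5A peaks on RAD21 (0.133%). For snoRNA genes, those of small nucleolar RNAs, they were 14 (0.196%) and 11 (0.0505%), close to the snRNA shares. For microRNA genes they were 33 (0.463%) and 62 (0.285%). A fold of at least 10 was found for 1 region at snoRNA genes and 2 at microRNA genes. These RNA genes were looked up after the values had been seen.

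Of 20033 protein-coding genes, 2081 (10.4%) had a region outside RAD21 at their start, 5175 (25.8%) had a PDS5A peak on RAD21 there, and 138 had both. The gene lists are read against these shares, without a test. Genes of ribosomal proteins had a region outside RAD21 at 35 of 79 starts (44.3%, interval 33.9% to 55.3%, against the 10.4% of all genes) and PDS5A on RAD21 at 21 (26.6%, against 25.8%). The median fold over the 35 was 5.87. High folds were found at RPS19 (86.0), RPS6 (40.2), RPL17 (28.8), RPS15 (22.1) and RPS2 (20.9). Chaperones had regions at 10 of 25 starts and PDS5A on RAD21 at 10, with HSPA4 (23.3), CCT8 (9.59), CCT5 (6.54), HSPA8 (6.14) and DNAJA1 (5.48) in the lead. Translation factors had regions at 10 of 35 starts, led by EIF4A2 (7.74) and EIF1 (7.47), and PDS5A on RAD21 at 15.

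Genes induced by signals had PDS5A on RAD21 more often than the 25.8% of all genes. Their shares with a region outside RAD21 were near the 10.4% of all genes. Of 40 immediate early genes, 3 (7.50%, interval 2.58% to 19.9%) had a region, namely ZFP36 (6.88), BTG2 (3.14) and NR4A3 (2.98), and 27 (67.5%) had PDS5A on RAD21. Of 29 targets of YAP and TGF-β, 4 (13.8%, interval 5.50% to 30.6%) had a region, and 25 (86.2%) had PDS5A on RAD21. Among the 4 were AXL, TAGLN and SKIL with folds between 3.20 and 3.72. Genes of the actin and tubulin cytoskeleton had regions at 10 of 37 starts, among them TUBB4B (8.78), TUBA1C (7.74) and CFL1 (6.96), and PDS5A on RAD21 at 20. Glycolysis genes had regions at 5 of 18 starts (27.8%), with TPI1 highest (9.27), and PDS5A on RAD21 at 8. Cell cycle and p53 pathway genes had regions at 6 of 41 starts (14.6%) and PDS5A on RAD21 at 12. CDC25C, a phosphatase that promotes entry into mitosis, had the highest region (12.2).

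The genes of cohesin itself had regions at 5 of 18 starts (27.8%, interval 12.5% to 50.9%, against the 10.4% of all genes). PDS5A on RAD21 was present at 8 of the 18 (44.4%, against 25.8%), with a median fold of 26.2. The median fold of the regions there was 4.55. MAU2, which encodes the partner of NIPBL in loading, had a fold of 17.6, SMC1A 6.63, STAG2 4.55, WAPL 3.22 and SGO1, the protector of centromeric cohesin, 3.18. Genes of retinal pigment epithelium identity had regions at 3 of 33 starts (SIX3, BSG and SLC16A3, folds 3.01 to 4.63) and PDS5A on RAD21 at 10. Genes of other lineages had 1 of 51 (SPI1, 3.802) and PDS5A on RAD21 at 9. Olfactory receptors had 2 of 392 and PDS5A on RAD21 at 5. Zinc finger genes on chromosome 19 had 23 of 250 (9.20%), near the 10.4% of all genes, and PDS5A on RAD21 at 39.

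The regions were found on all chromosomes listed. Their share of PDS5A peaks was highest on chromosome 10 (31.5%), X (31.1%) and 19 (28.8%) and lowest on chromosome 15 (20.5%). The densest stretch of 100 kb was on chromosome 11, where 14 regions lay between positions 804941 and 870398, over PIDD1, RPLP2, PNPLA2, CD151, POLR2L and TSPAN4, with a median fold of 3.46. On chromosome 1 another 9 lay between 1308947 and 1389469, around INTS11, DVL1 and CCNL2. On chromosome 6, 8 lay over histone genes between 27807520 and 27894635, and on the X chromosome 8 lay over FLNA, EMD and RPL10.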

How the data were processed

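ChIP-seq peak lists of 12 libraries were used. Per the submitters' processing notes BWA, Picard, SAMtools, bedtools, deepTools and MACS2 were among the tools and hg38 and mm10 among the builds; versions, settings and filters are not given in the sources used here. Each deposited list was of 1 library, with its score, its fold enrichment as a ratio, its −log10 p and its −log10 q as the authors deposited them. Peak names carry a q threshold of 0.001 for CTCF and 0.01 elsewhere, and show that PDS5A and RAD21 of clone D7 in DMSO shared 1 input. Per the labels' protocols, CTCF libraries were made with another kit and size-selected, HA chromatin had an extra crosslinker, and RAD21 and PDS5A carried about 10% NIH/3T3 chromatin, whose factor was not used. Folds were compared only within a list.

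Overlap meant at least 1 bp. Gene starts came from RefSeq promoters of GRCh38.p14, with their strand, for 15842 protein-coding genes, and either end was used for 4191 others. Distances use summits. Whole pileups were recovered from fold and −log10 p for 100% of peaks with −log10 p under 250 in 11 lists, to within 0.02, but for 1.74% in the HA list. Read totals are unknown. Intervals are Wilson or Newcombe at 95%. The code for overlaps, nearest starts, pileups and word searches was checked on simulated data (Python 3.11.15, numpy 2.4.6, pandas 2.3.3, scipy 1.17.1).

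The regions, gene lists, motifs and rule for named peaks were chosen with earlier results of these data known. Named were the 10 regions with the highest fold, the 3 highest without CTCF and over 10 kb from a start, the 3 on each side of the edge of the rule, those in CTCF, STAG1, STAG2 and a dTAGV-1 list, and up to 6 genes of each list. The 8-letter and 10-letter words, the snRNA genes and the WAPL-positive regions were picked after the values had been seen. Sequences of regions away from promoters were not analysed here, and some named items are not reported here.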

Additional observations from a re-analysis of the deposited data

How the results depend on the processing

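Of 41 alternative values, 16 stayed within the counting interval of the value reported (counts within 1.5 times) and 25 moved. Requiring a −log10 q of at least 10 left 985 regions, of which 53.8% met CTCF, 53.2% lay at a gene start (631 genes), 10.1% met STAG1, 0.812% STAG2 and 34.2% a dTAGV-1 RAD21 list. Using the clone D7 DMSO list alone gave 26.8% with CTCF, 5.99% with STAG1, 0.711% with STAG2 and 17.9% with a dTAGV-1 list. Using all 6 RAD21 lists gave 15.8% with CTCF, 21.6% at a start, 1.79% with STAG1 and 0.0805% with STAG2. A gap of at least 1 kb to RAD21 moved none of the values.

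CTCF overlap was 5.73% with the upper 50% of CTCF peaks and 14.9% with summits within 200 bp. With summits within 200 bp STAG1 stood at 2.47%, STAG2 at 0.0702% and a dTAGV-1 list at 8.63%. A window of 250 bp put 17.3% of regions at a start (1360 genes) and one of 2.5 kb 30.9%. The remaining alternatives were chosen after seeing the data. The share of strong promoter windows with the 8-letter word was 64.9% at a fold of at least 20 and 26.1% at 5 or more. These windows are part of, or include, those on which the word was chosen, so they are no separate check. The share of element windows with PDS5A stayed at 89.6% to 94.2%. The cause of these shifts was not tested. No paired analysis was possible because each group had 1 library, and no library could be left out for the same reason. Depth limits the absence of RAD21 to the absence of a called peak.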
